A study of Mus musculus with 6 samples.

Results

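The 4 genes described here, Tanc2, Eya1, Ryr2 and Cdk5rap1, were chosen by their measured transcript counts: these were higher in germinal centre B cells of Pik3cg knockout mice than in those of wild-type mice. They are 4 of the 32285 genes in the count table, and each was found by its symbol. Because that contrast chose them, their values in germinal centre B cells of the 2 genotypes are given as a description without a test. Tests were run on what the choice did not use: the zones and cell cycle states within a mouse, the difference between genotypes from state to state, and the genotypes in other cell types.

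The mice were wild-type (WT) or carried a knockout of Pik3cg (KO), the gene of the catalytic p110-gamma subunit of phosphoinositide 3-kinase, with 3 mice of each genotype. All received 3 immunizations with NP-Ova, a hapten coupled to ovalbumin, in alum, and draining lymph node cells were taken at day 34. Cells enriched for B cells, with a further antibody against IgD to favour switched cells, made up 70% of each mixture and untouched cells 30%, so the cell types stand in proportions set by the enrichment. Cells of each mouse carried a hashtag antibody, were mixed and were sequenced as single-cell gene expression libraries on 2 lanes. Strain, sex, age and the construct of the knockout are not given in the labels, which call the mice Pik3cg knockout without naming a cell type for the deletion. Mice are called WT1 to WT3 and KO1 to KO3 in the order of their hashtags.

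Germinal centres are sites in lymphoid follicles where antigen-activated B cells divide, mutate their antibody genes and are selected. Division and mutation take place mainly in the dark zone, whose cells carry the chemokine receptor Cxcr4, and selection by T cells takes place in the light zone, whose cells carry Cd83 and Cd86. The 4 genes belong to different pathways. Tanc2 encodes a scaffold protein with ankyrin and tetratricopeptide repeats, best known from the postsynaptic side of neurons. Eya1 encodes a transcriptional coactivator that also has phosphatase activity and acts in organ development. Ryr2 encodes the ryanodine receptor that releases calcium from the sarcoplasmic reticulum of heart muscle. Cdk5rap1 encodes a methylthiotransferase that modifies mitochondrial transfer RNAs and was first found as a partner of the CDK5 activator.

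In GRCm38, the genes lie on 4 chromosomes, none of them chromosome 12, which carries Pik3cg. Tanc2 (ENSMUSG00000053580) spans chromosome 11, 105589986 to 105929304, on the plus strand, with up to 26 exons in a transcript. Eya1 (ENSMUSG00000025932) spans chromosome 1, 14168954 to 14310235, on the minus strand, with up to 18 exons. Ryr2 (ENSMUSG00000021313) spans chromosome 13, 11553102 to 12106945, on the minus strand, with up to 105 exons, and Cdk5rap1 (ENSMUSG00000027487) spans chromosome 2, 154335380 to 154373010, on the minus strand, with up to 15. Ryr2, Tanc2 and Eya1 are long genes: their spans of 554, 339 and 141 kb exceeded those of 99.6, 98.7 and 93.8% of the 10113 genes tested in germinal centre B cells that have a span. Cdk5rap1, at 37.6 kb, was longer than 66.3% of them, against a median span of 23.1 kb. None of the sources used here states whether reads in introns were counted. The 8 other annotated genes that overlap Tanc2, Eya1 or Ryr2, all microRNA genes, processed pseudogenes or gene models still to be checked by experiment, were not in the count table.

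The promoters of Tanc2 and Ryr2 are shown because these were the 2 genes with an entry in the RefSeq promoter table and no annotated exon in the window. The 250 bases upstream of each RefSeq gene start (GRCm38.p6) are written 5′ to 3′ on the gene's own strand, at chr11:105589736-105589985 for Tanc2 (plus strand) and chr13:12106946-12107195 for Ryr2 (minus strand). Capitals mark the GC box GGGCGG on either strand; overlapping or adjoining boxes run together.
Tanc2: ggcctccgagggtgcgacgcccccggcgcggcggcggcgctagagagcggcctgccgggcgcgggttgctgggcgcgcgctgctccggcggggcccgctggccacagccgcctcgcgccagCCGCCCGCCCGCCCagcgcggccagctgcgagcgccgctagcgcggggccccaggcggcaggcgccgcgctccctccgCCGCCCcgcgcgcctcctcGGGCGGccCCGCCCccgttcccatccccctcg
Ryr2: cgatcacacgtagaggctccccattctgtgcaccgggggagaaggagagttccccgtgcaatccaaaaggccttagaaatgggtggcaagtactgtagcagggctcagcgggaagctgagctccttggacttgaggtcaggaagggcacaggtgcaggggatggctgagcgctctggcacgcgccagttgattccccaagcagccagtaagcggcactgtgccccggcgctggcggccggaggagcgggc
The Tanc2 stretch was 85.6% G and C, held 46 CpG dinucleotides and had 6 GC boxes, the nearest 24 bases before the start. The Ryr2 stretch was 63.2% G and C with 14 CpG dinucleotides and no GC box; the median over all promoters of that length was 52.4% G and C. Over the same 250 bases upstream, 32.7% of the 32851 promoters in the promoter table held a GC box, among them that of Cdk5rap1 with 1. The other motifs searched on both strands were FOXO TGTTTAC, E-box CACGTG, octamer ATGCAAAT, AP-1 TGANTCA, cyclic AMP element TGACGTCA, PU.1 GAGGAAGT, CCAAT as such, the box TATAAA and E2F TTTCCCGC. Each was found in 0.895 to 33.8% of all promoters, and none of them matched in the windows of Tanc2, Ryr2 or Cdk5rap1. Eya1 had no entry in that table, and the Cdk5rap1 window overlapped annotated exons, so neither sequence is shown.

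Of 23516 barcodes, 19270 carried a single hashtag and 19024 were kept, with 6960179 to 13579214 unique molecular identifiers (UMIs, each standing for 1 captured transcript) per mouse. The 2 lanes shared 135 barcode sequences among those with a single hashtag, which were kept as separate cells. Clusters named by marker genes gave 4052 germinal centre B-like, 9266 follicular B-like, 3728 T-like and 567 NK-like cells. There were 245 cells like macrophages or monocytes, 172 like dendritic cells, 71 like plasmacytoid dendritic cells and 51 like antibody-secreting cells. All 10 germinal centre markers, Bcl6 and S1pr2 among them, were detected in the germinal centre B-like cells of every mouse. Pik3cg RNA was still counted in KO mice, at 28.6 to 28.9 counts-per-million (CPM, UMIs of a gene per total UMIs) over all cells against 31.2 to 40.4 CPM in WT mice; as the deleted part of the gene is not known here, this does not check the labels. Germinal centre B-like cells numbered 835, 131 and 286 in WT1 to WT3 and 548, 1411 and 841 in KO1 to KO3, with median depths of 4053 to 4493 UMIs per cell. Nothing in the labels says that the mice were handled in separate batches; p-values measure the spread between these mice.

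Each of the 4 genes was higher in every KO mouse than in every WT mouse over all germinal centre B-like cells, which is the pattern they were chosen for. Tanc2 stood at 12.1, 18.3 and 17.3 CPM in WT1 to WT3 and at 37.8, 34.6 and 38.6 CPM in KO1 to KO3. The groups did not overlap, with means of 15.9 ± 3.33 and 37 ± 2.12 CPM (SD, n = 3 each) and a fitted log2 fold change of 1.37 (SE 0.17). Eya1 was at 30.5, 30.6 and 39.5 CPM in WT and 55.7, 57.4 and 56.5 CPM in KO mice. Its KO values lay within 2 CPM of each other and above all WT values, and its fitted log2 fold change of 0.79 (SE 0.10) was the smallest of the 4.

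The calcium channel gene Ryr2 was at 6.15, 6.12 and 8.32 CPM in WT and 18.9, 17.4 and 16.6 CPM in KO mice, with no overlap (log2 fold change 1.40, SE 0.21). These levels rest on few molecules, 43 UMIs in the 1252 WT cells and 261 in the 2800 KO cells. Cdk5rap1 was at 4.33, 6.12 and 4.85 CPM in WT and 13, 13 and 21 CPM in KO mice. KO3 was the highest and the groups did not overlap; the log2 fold change of 1.74 (SE 0.29) rests on 30 UMIs in WT and 227 in KO cells. Across all 10116 genes tested in these cells, 0.089% passed an edgeR adjusted p of 0.05 with a higher level in KO, and in 5.51% every KO mouse was above every WT mouse; as the choice of the genes used this contrast, nothing is read from the 4 of 4.

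The same description held in the share of cells with a UMI. Cells with Tanc2 made up 5.15, 6.11 and 7.69% of germinal centre B-like cells in WT1 to WT3 and 15.5, 14 and 13.6% in KO1 to KO3. Cells with Eya1 made up 12.2 to 15.4% in WT and 20.2 to 22.6% in KO mice. Cells with Ryr2 made up 2.28 to 3.15% in WT and 5.35 to 7.12% in KO mice, and cells with Cdk5rap1 2.28 to 3.05% and 6.59 to 8.8%. In none of the 4 did the shares of the genotypes overlap, in the contrast that chose the genes. How many of all genes lack overlap by this measure was not counted, so nothing is read from the 4 of 4. With each cell thinned at random to 1500 UMIs, the mean shares were 1.9 ± 1.02% in WT and 5.28 ± 0.29% in KO for Tanc2 and 4.88 ± 1.08% and 8.43 ± 0.553% for Eya1 (SD, n = 3 each). For Ryr2 they were 1.09 ± 0.313% and 2.94 ± 0.605%, and for Cdk5rap1 0.725 ± 0.112% and 2.47 ± 0.769%.

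**Figure D1:**
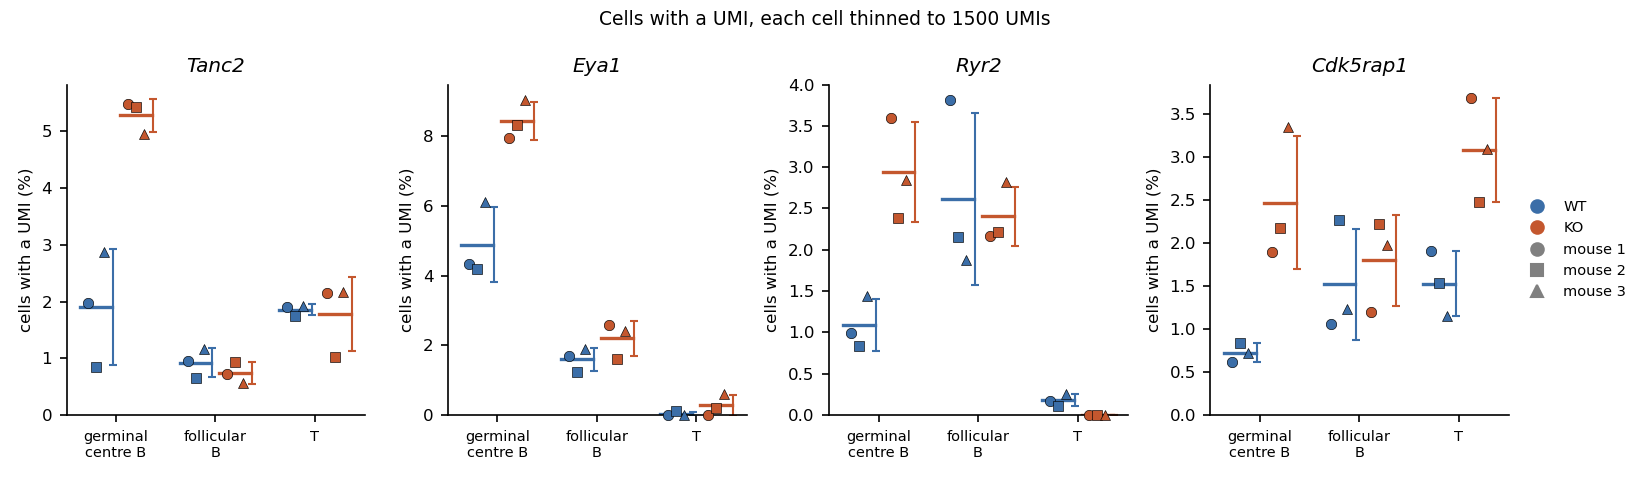
Share of cells with at least 1 UMI of each gene (y axis, %) in germinal centre B-like, follicular B-like and T-like cells, each cell thinned to 1500 UMIs. Each point is 1 mouse (blue WT, orange KO), lines are means and bars SDs over 3 mice. In germinal centre B-like cells, whose contrast chose the genes, every KO point lies above every WT point for all 4 genes. The T-like shares of Eya1 and Ryr2 are near 0.

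Most positive cells held 1 UMI. Tanc2 was counted once in 364 germinal centre B-like cells, at 2 UMIs in 74 and at 3 or more in 31, with a highest value of 9. Eya1 was counted once in 582 cells, at 2 UMIs in 140 and at 3 or more in 55; Ryr2 gave 148, 37 and 21 cells and Cdk5rap1 215, 18 and 2. Of the 4052 cells, 2674 had none of the 4 transcripts, 1104 had 1 of the genes, 241 had 2, 31 had 3 and 2 had all 4. At this depth a cell without a UMI cannot be read as a cell without the transcript.

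Among genes higher in KO germinal centre B-like cells, Cdk5rap1 was one of the last to pass the threshold, with an edgeR adjusted value of 0.0311, the same as for Fos (log2 fold change 0.55). Just outside it were the light-chain segment Igkv4-57-1 (log2 fold change 5.65, 0.0518), Odc1 (0.59, 0.0518) and Rgs1 (0.51, 0.0651). Tanc2 had 0.0022, Eya1 0.0039 and Ryr2 0.0109. These values show how the 4 genes were selected and are not evidence for them.

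Markers of other cell types in the germinal centre B-like sums did not follow genotype except for one list. The 10 T cell markers summed to 62.6 to 84.6 CPM in WT and 61.9 to 75.3 CPM in KO mice, and the 9 antibody-secreting cell markers to 1830 to 2210 CPM and 2070 to 2200 CPM. The 8 macrophage and monocyte markers summed to 5.55 to 10.7 CPM in WT and 3.58 to 6.38 CPM in KO mice, with C1qb and Fcgr1 at 0 in every mouse. The 5 stromal and endothelial markers summed to 28.4 to 30.1 CPM in WT, where 1 or 2 of 5 were detected, and 37.2 to 42.9 CPM in KO mice, where 3 to 5 were; Pdgfrb was at 0 in all mice but KO3. In WT2 and WT3 Pecam1 was the only gene of this list counted, so the sums there are those of Pecam1. The list is thus not read as a measure of stromal cells. The part of the genotype difference of this list in the values of the 4 genes was not tested. The nuclear RNA Malat1 took 0.241 to 0.271% of UMIs, without a split by genotype.

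Across cell types the 4 genes differed widely in where else they were found. The class levels below are a description, since clusters were drawn on the same cells; none of the 4 was among the variable genes used to draw them. Tanc2 stood at 26.4 ± 11.8 CPM in germinal centre B-like cells over the 6 mice, against 12.1 ± 4.94 CPM in NK-like, 10.4 ± 1.92 CPM in T-like and 5.25 ± 1.5 CPM in follicular B-like cells. That order rests on the KO mice: in WT mice the germinal centre B-like values of 12.1 to 18.3 CPM overlapped those of NK-like (10.4 to 16.1 CPM) and T-like cells (10 to 13.7 CPM) and lay above those of follicular B-like cells (2.85 to 7.33 CPM). The 71 plasmacytoid dendritic cell-like cells held 6 Tanc2 UMIs, a pooled level of 22.2 CPM that ran from 0 to 54 CPM in the 4 mice with at least 10 such cells. NK-like and T-like levels did not differ beyond their spread. Within T-like cells, the cluster led by the regulatory T cell genes Foxp3, Il2ra and Ikzf2 had 18.7 CPM (23 UMIs in 482 cells), against 8.04 and 10.6 CPM in the clusters led by Cd4 and by Cd8a. Within follicular B-like cells, the cluster led by the activation genes Egr3, Nr4a1 and Myc had 11.3 CPM (26 UMIs), against 4.12 to 4.57 CPM in the other 3.

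Eya1 was higher in germinal centre B-like than in follicular B-like cells and was hardly counted in T-like cells. It stood at 45 ± 13 CPM in germinal centre B-like, 13.3 ± 3.22 CPM in follicular B-like and 0.836 ± 0.681 CPM in T-like cells (SD, n = 6). T-like cells gave 7 UMIs in 3728 cells, a share of 0.188% at a median depth of 2469 UMIs, while 2.37% of follicular B-like cells were positive at a median of only 1756. The T-like share is given as the background against which B-lineage shares are read; free RNA was not measured. NK-like cells had 13.4 ± 8.16 CPM, from 5.42 to 23.5 CPM by mouse, near the follicular B-like level. Of that cluster's cells, 48.9% also held a Cd3e UMI. Cells like macrophages or monocytes had a pooled 10.3 CPM from 10 UMIs, with 3.67% positive at a median depth of 3787 UMIs. The transcript was thus not confined to B-lineage cells. In the 71 plasmacytoid dendritic cell-like cells 11 UMIs gave a pooled level of 40.7 CPM, and 172 dendritic cell-like cells held none at a median depth of 1323 UMIs, which allows a share of cells with a counted UMI of up to 1.74%. Such limits do not bound the share of cells that hold the transcript.

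Ryr2 was found in follicular and germinal centre B-like cells but was lower in an unnamed B-lineage cluster. It stood at 18.8 ± 4.29 CPM in follicular B-like and 12.2 ± 6 CPM in germinal centre B-like cells, a difference within the spread of the 6 mice. In WT mice alone the follicular B-like mean was 20.2 ± 5.46 CPM and the germinal centre B-like mean 6.86 ± 1.26 CPM, without overlap between the 3 and 3 values. In KO mice the means were 17.3 ± 3.16 and 17.6 ± 1.17 CPM. The choice of the genes used the germinal centre values of each genotype. As the share of all genes without overlap between these classes was not counted, nothing is read from the lack of overlap. T-like cells had 0.612 ± 0.587 CPM, from 7 UMIs in 3728 cells, and cells like plasmacytoid dendritic cells or antibody-secreting cells held no UMI, which allows shares of cells with a UMI of up to 4.23 and 5.88%. Among follicular B-like clusters the level ran from 12.8 CPM in the cluster led by the interferon-stimulated genes Ifit3 and Isg15 to 24.2 CPM in the cluster led by Irs2 and Pgap1. The unnamed cluster had 750 cells, 98.5% of them with Cd79a, and a pooled Ryr2 level of 3.39 CPM from 7 UMIs. Pooled levels were 18.5 CPM in follicular and 14.2 CPM in germinal centre B-like cells.

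Over all 6 mice Cdk5rap1 stood at 10.4 ± 6.51 CPM in germinal centre B-like, 11.1 ± 3.23 CPM in follicular B-like, 12.9 ± 5.92 CPM in T-like and 10.9 ± 6.92 CPM in NK-like cells (SD, n = 6). None of these neighbours differed beyond its spread over both genotypes. In WT mice alone the germinal centre B-like mean of 5.1 ± 0.921 CPM (4.33 to 6.12 CPM) lay below the follicular B-like mean of 10.7 ± 4.69 CPM (7.12 to 16 CPM), without overlap. In KO mice the means were 15.7 ± 4.62 and 11.6 ± 1.87 CPM, with overlap. The choice of the genes used these germinal centre values. The share of all genes without overlap between the 2 classes was not counted, so nothing is read from it. Its highest cluster within T-like cells was again the one led by Foxp3, at 19.5 CPM from 24 UMIs. The 51 antibody-secreting cell-like cells held none, which allows a share of cells with a UMI of up to 5.88%.

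**Figure D2:**
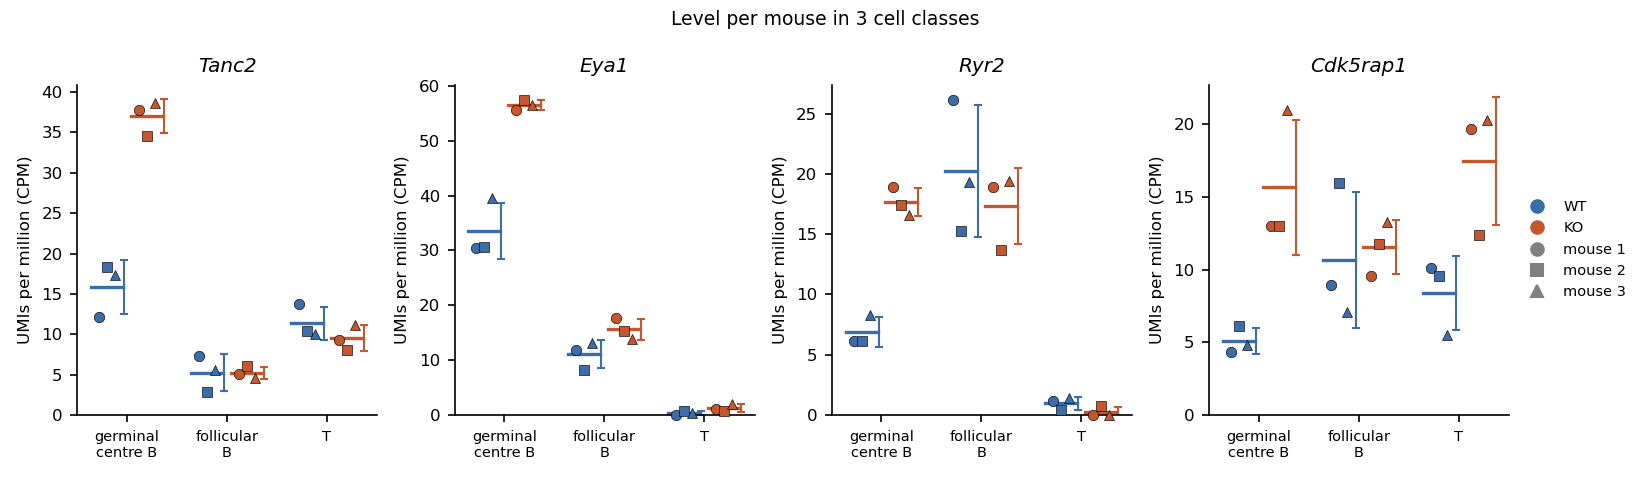
Level of each gene (y axis, CPM) in germinal centre B-like, follicular B-like and T-like cells, 1 point per mouse (blue WT, orange KO), with means and SDs over 3 mice. Tanc2 stands out in KO germinal centre B-like cells at 34.6 to 38.6 CPM, Ryr2 is found at like levels in both B cell classes of KO mice, and Cdk5rap1 is higher in all KO than in all WT mice in T-like as well as germinal centre B-like cells.

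In follicular B-like and T-like cells, the 2 classes fitted outside germinal centres, none of the members tested differed between the genotypes past the edgeR threshold. The choice of the genes did not use these cells, and the smaller classes were not fitted. All 4 passed the filter on low counts in follicular B-like cells, and edgeR called 0 of 4 there, against 0.0512% of 9773 genes; 1 had an unadjusted p under 0.05, and DESeq2 called 0. Tanc2 was at 7.33, 2.85 and 5.54 CPM in WT and 5.09, 6.07 and 4.59 CPM in KO follicular B-like cells, with means of 5.24 ± 2.26 and 5.25 ± 0.753 CPM. The log2 difference of 0.08 had an SE of 0.33 (edgeR adjusted p = 0.987) and was -0.03 without KO2 and -0.20 without WT2, against 1.37 in germinal centre B-like cells.

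Eya1 was at 11.8, 8.2 and 13.2 CPM in WT and 17.7, 15.3 and 13.8 CPM in KO follicular B-like cells. The KO values were all above the WT values, which held for 4.69% of all genes tested, and the log2 difference was 0.54 (SE 0.21, unadjusted p = 0.0216, edgeR adjusted p = 0.563). Over 12 alternatives it stayed between 0.36 and 0.74, with adjusted p from 0.343 to 1. The share of Eya1-positive cells, thinned to 1500 UMIs, was 1.6 ± 0.339% in WT and 2.2 ± 0.506% in KO mice (two-sided exact permutation test over 20 assignments, p = 0.3, adjusted 0.64, n = 3 each), where 0.1 is the smallest p that 3 against 3 mice allow. Without thinning the shares were 1.86% and 2.86% and did not overlap (exact permutation p = 0.1, adjusted 0.4).

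Ryr2 had no call between genotypes in follicular B-like cells. Its follicular B-like levels were 26.1, 15.3 and 19.3 CPM in WT and 18.9, 13.7 and 19.4 CPM in KO mice, with overlapping groups and a log2 difference of -0.18 (SE 0.21, edgeR adjusted p = 0.895). Without WT1 the difference was 0.02. Cdk5rap1 was at 8.96, 16 and 7.12 CPM in WT and 9.59, 11.8 and 13.3 CPM in KO mice (log2 difference 0.16, SE 0.28, edgeR adjusted p = 0.942), and without WT3 at -0.12. The difference between follicular and germinal centre B-like cells in the effect of the genotype was not tested, since the germinal centre contrast chose the genes.

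In T-like cells 2 of the 4 genes passed the filter and edgeR called 0 of these 2, against 0.33% of 8484 genes; 1 had an unadjusted p under 0.05 and DESeq2 called 0. That gene was Cdk5rap1, at 10.1, 9.6 and 5.48 CPM in WT and 19.7, 12.4 and 20.3 CPM in KO mice. Every KO mouse was above every WT mouse, as in 5.63% of the genes tested, with a log2 difference of 1.03 (SE 0.30, unadjusted p = 0.00267, edgeR adjusted p = 0.28). The difference stayed between 0.79 and 1.26 over 11 alternatives, with adjusted p from 0.105 to 0.777. By share, 1.53 ± 0.374% of thinned T-like cells were Cdk5rap1-positive in WT and 3.08 ± 0.606% in KO mice (two-sided exact permutation test, p = 0.1, the smallest possible, adjusted 0.4, n = 3 each).

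Cdk5rap1 was also higher in KO in the T-like cluster led by Cd4 (means 8.59 and 18.2 CPM) and in that led by Cd8a (6.28 and 13.9 CPM), without overlap in either. How many of all genes lack overlap within these clusters was not counted. In the cluster led by Foxp3 the means were 15.7 and 25.4 CPM with overlap. NK-like cells had 10.4, 0 and 9.64 CPM in WT and 11.8, 11.9 and 21.7 CPM in KO mice, from 17 UMIs in all. Tanc2 in T-like cells was at 13.7, 10.4 and 10 CPM in WT and 9.31, 8.04 and 11.2 CPM in KO mice, with overlap and a log2 difference of -0.24 (SE 0.30, edgeR adjusted p = 0.921). Eya1 and Ryr2 were below the filter in T-like cells, at 0 to 3 UMIs in each mouse.

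**Figure D3:**
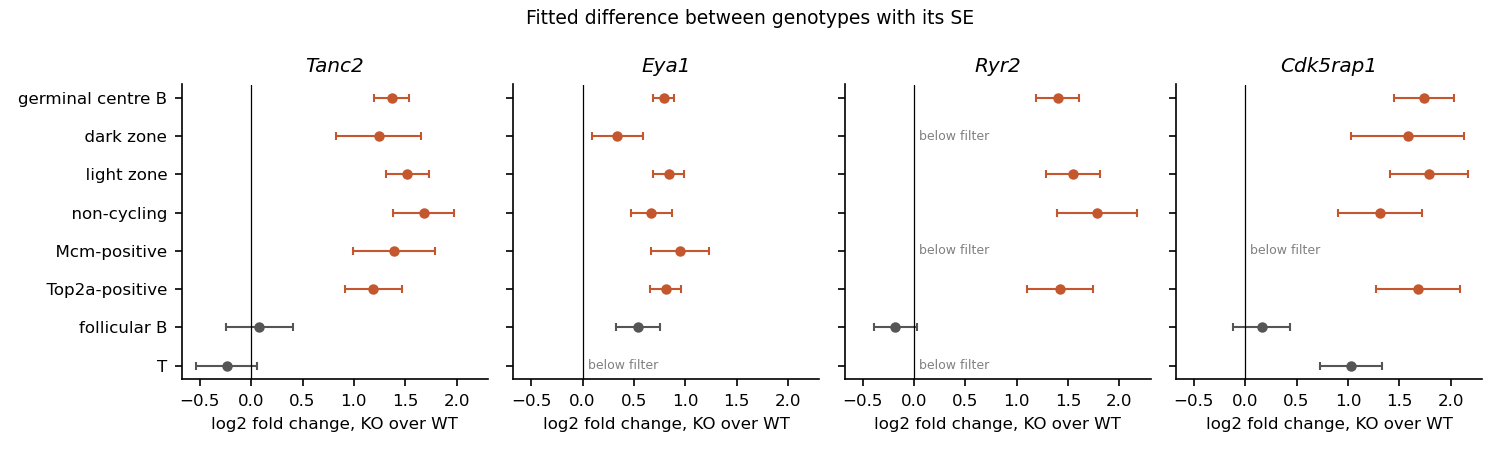
Fitted log2 fold change of KO over WT (x axis) with its SE for each gene in germinal centre B-like cells and their states (orange, a description) and in follicular B-like and T-like cells (grey, tested). In germinal centre B-like cells and in each of their states that passed the filter the 4 genes lie above 0, from 0.34 for Eya1 in the dark zone to 1.79 for Cdk5rap1 in the light zone; outside them the points run from -0.24 for Tanc2 to 1.03 for Cdk5rap1 in T-like cells.

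To place the transcripts within the germinal centre, each cell was assigned a zone by its raw UMIs, dark where Cxcr4 exceeded Cd83 plus Cd86 and light where these exceeded Cxcr4. This gave 576 dark, 2072 light and 1404 unresolved cells, with median depths of 5419, 4486 and 3567 UMIs. Dark cells made up 12.2 to 14% of WT and 13.6 to 15.3% of KO germinal centre B-like cells, and light cells 44.3 to 50% and 50.5 to 53.6%.

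Tanc2 was lower in the dark zone of every mouse. It stood at 10.4, 7.1 and 13.3 CPM in dark and 13.5, 27.1 and 14.2 CPM in light cells of WT1 to WT3. In KO1 to KO3 it stood at 26.2, 21.4 and 30.7 CPM in dark and 46.8, 40.9 and 42.7 CPM in light cells. The WT2 dark value is 1 UMI in 18 cells. Within mice, the log2 difference of dark minus light was -0.69 (SE 0.18, edgeR adjusted p = 0.00576), lower in dark in 6 of 6 mice. Of the 2 genes that passed the filter, Tanc2 was the 1 called lower in dark, against 6.43% of 6904 genes. In either direction edgeR called 977 of the 6904. The sign held in all 14 alternatives (-1.08 to -0.55), but the adjusted p was 0.0736 by DESeq2, 0.128 without KO2, 0.12 in lane 1 alone and 0.825 with cells thinned to 2000 UMIs and no filter; Tanc2 was below the filter in lane 2 alone and with thinning alone.

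Ryr2 was also lower in the dark zone of every mouse, and 24 of its 304 UMIs came from dark cells. Dark cells of WT1 to WT3 held 3, 0 and 0 Ryr2 UMIs and those of KO1 to KO3 held 3, 16 and 2. In light cells the levels were 6.77, 13.6 and 11.7 CPM in WT and 27.5, 23.7 and 25.4 CPM in KO mice, all above the same mouse's dark level, which was 0 to 11.1 CPM. Ryr2 was below the filter in the main comparison of zones. Without a filter the log2 difference was -1.72 (SE 0.28, edgeR adjusted p = 1.17e-07). Without WT2 or without WT3, where Ryr2 passed, the difference was -1.66 and -1.64. Ryr2 passed there mainly through sums of KO mice, where it is high by choice, so these fits are not read as support. With cells thinned to 2000 UMIs and no filter it was -0.77 (SE 0.46, edgeR adjusted p = 0.909). As counted, 2.6% of dark cells had a Ryr2 UMI at a pooled level of 6.14 CPM, against 0.188% of T-like cells. Thinned to 1500 UMIs, the dark share was 0.177%, which is 1 cell of 564, against 3.19% of light and 0.117% of T-like cells, so no order of dark and T-like cells is read from it.

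Eya1 did not differ between the zones past its error. Its levels were 35, 35.5 and 48.6 CPM in dark and 28.9, 37.3 and 41.4 CPM in light cells of WT mice, and 54.1, 47 and 45.4 CPM in dark and 58.3, 58.1 and 60.8 CPM in light cells of KO mice. It was lower in dark in 4 of 6 mice, with a log2 difference of -0.13 (SE 0.13, edgeR adjusted p = 0.593). Cdk5rap1, below the filter, was higher in dark in 5 of 6 mice, with means of 14.3 ± 8.11 CPM in dark and 9.75 ± 6.41 CPM in light cells (SD, n = 6). Without a filter its log2 difference was 0.40 (SE 0.25, edgeR adjusted p = 0.597).

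Cells were also assigned a cycle state: Top2a-positive with at least 1 UMI of Top2a, a topoisomerase of late S phase to mitosis; Mcm-positive with at least 2 UMIs of the replication helicase genes Mcm2 to Mcm7 and no Top2a; and non-cycling otherwise. There were 1669 Top2a-positive, 796 Mcm-positive and 1587 non-cycling cells, with median depths of 6319, 4656 and 3279 UMIs. Deeper cells pass such gates more easily, and a non-cycling call here means that no such UMIs were counted. All 4 genes passed the filter in this fit. Ryr2 and Cdk5rap1 did so mainly through sums of KO mice, where these genes are high by choice. Cdk5rap1 stood at 0 to 8.51 CPM in the WT sums and at 10.1 to 21.9 CPM in the KO sums. That they passed is therefore not read as a result.

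Ryr2 was lower in cycling than in non-cycling cells by the fit, and less so once cells were thinned to one depth. Non-cycling cells had 8.51, 19.5 and 5.54 CPM in WT and 40.7, 32.4 and 21.6 CPM in KO mice. Top2a-positive cells had 4.95, 2.72 and 6.66 CPM in WT and 13.8, 12.2 and 15.3 CPM in KO mice, lower than non-cycling cells in 5 of 6 mice. The log2 difference of Top2a-positive minus non-cycling was -1.05 (SE 0.21, edgeR adjusted p = 5.13e-05), and that of Mcm-positive minus non-cycling -1.08 (SE 0.27, edgeR adjusted p = 0.00232), also lower in 5 of 6 mice. With cells thinned to 2000 UMIs before the gates and no filter, the differences were -0.25 (SE 0.32, edgeR adjusted p = 0.823) and -0.17 (edgeR adjusted p = 0.909), nearer 0 than those of Tanc2 in the same fit (-0.33 and -0.38). Depth moved with cycle state, and its part in the difference was not tested beyond this thinned fit.

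Tanc2 was likewise lower in cycling cells by the fit, though not in every mouse. Non-cycling cells had 17, 19.5 and 11.1 CPM in WT and 36.2, 47.1 and 64.9 CPM in KO mice. Top2a-positive cells had 10.3, 21.7 and 21.3 CPM in WT and 42.5, 27.1 and 30.2 CPM in KO mice, lower in 3 of 6 mice. The log2 difference was -0.51 (SE 0.17, edgeR adjusted p = 0.0092) for Top2a-positive cells and -0.60 (SE 0.21, edgeR adjusted p = 0.0294) for Mcm-positive cells, which were lower in 5 of 6 mice. Without KO3, whose non-cycling value was the highest, these were -0.31 and -0.29 (edgeR adjusted p = 0.183 and 0.412), and thinned to 2000 UMIs they were -0.32 and -0.33 (0.305 and 0.403).

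In all, 2 of 4 genes, Tanc2 and Ryr2, were called lower in Top2a-positive cells, where 24.5% of 7129 genes were called lower. The same 2 were called lower in Mcm-positive cells, where 9.75% were. In either direction edgeR called 3633 and 1671 of the 7129 genes in these comparisons. With so many genes called, and with Ryr2 and Cdk5rap1 in the fit mainly through KO sums, nothing particular to the 4 is read from these counts. DESeq2 called 1 of 4 in each, Ryr2, against 3155 and 1340 genes over all. Lane 1 alone called 1 gene in Top2a-positive and 0 in Mcm-positive cells, and lane 2 alone 0 in both, with 2 genes tested in each. Without KO3 0 of the 2 genes then tested were called in either comparison. Ryr2 fell below the filter there. Tanc2 was still tested and did not pass (log2 difference -0.31 and -0.29, edgeR adjusted p = 0.183 and 0.412). Without KO2 1 of 3 was called in each. Eya1 was lower in Top2a-positive cells in 6 of 6 mice, with means of 42.3 ± 12.7 against 51.8 ± 14.6 CPM, but its log2 difference of -0.23 (SE 0.12) did not pass (edgeR adjusted p = 0.107), and thinned it was 0.08. Cdk5rap1 had means of 10.8 ± 6.45 CPM in Top2a-positive and 11.5 ± 6.57 CPM in non-cycling cells and a log2 difference of -0.19 (SE 0.23, edgeR adjusted p = 0.521).

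**Figure D4:**
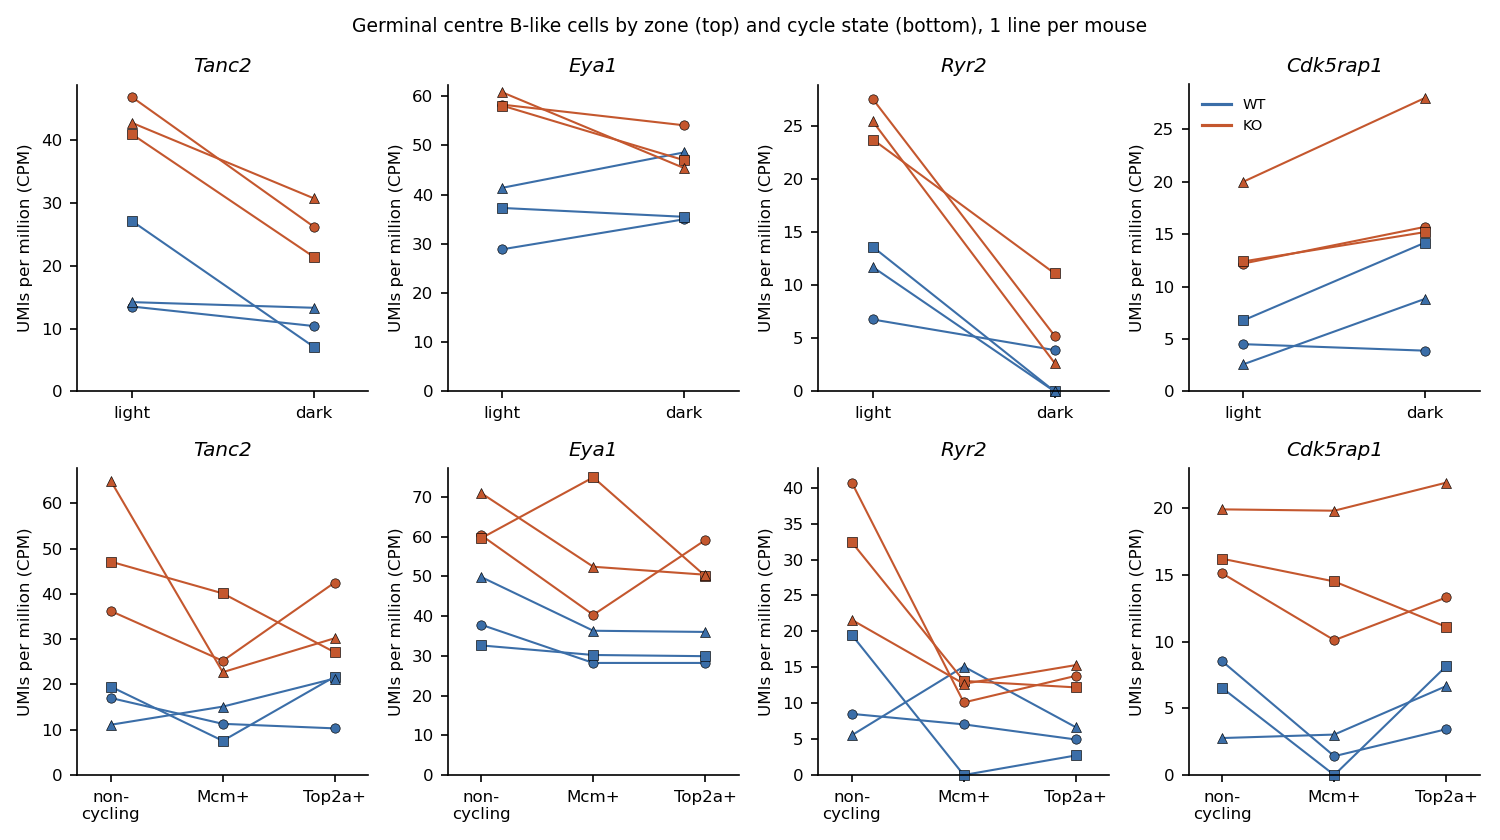
Level of each gene (y axis, CPM) in germinal centre B-like cells by zone (top) and by cycle state (bottom), 1 line per mouse (blue WT, orange KO; circle, square and triangle are mice 1 to 3). Tanc2 and Ryr2 lines fall from light to dark in all 6 mice, Ryr2 falls from non-cycling to Top2a-positive in 5 of 6, and Eya1 and Cdk5rap1 have no such common slope between zones.

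By zone and cycle together, light non-cycling cells had the highest Ryr2 level in the KO mice but not in every WT mouse. Pooled over mice, these held 100 UMIs in 848 cells, or 33.3 CPM, against 18 CPM in light Mcm-positive and 14.3 CPM in light Top2a-positive cells. Dark non-cycling cells held 2 UMIs in 173 cells (3.25 CPM), dark Mcm-positive cells 1 in 97 (1.89 CPM) and dark Top2a-positive cells 21 in 306 (7.6 CPM). KO mice gave most of the cells. In KO1 to KO3 light non-cycling cells had 52.4, 45.6 and 31.2 CPM, above the same mouse's light Mcm-positive (17.2, 20.3 and 22.1 CPM) and light Top2a-positive cells (19.7, 13.8 and 23.3 CPM). In WT1 and WT3 the order turned: light non-cycling cells had 9.03 and 0 CPM, from 5 and 0 UMIs, against 10.7 and 20.8 CPM in light Mcm-positive cells, from 4 UMIs each. For Tanc2, pooled light non-cycling cells had 41.9 CPM and dark non-cycling cells 29.2 CPM. For Eya1 the pooled pair was 61.6 and 50.3 CPM, and for Cdk5rap1 12.6 and 22.7 CPM. By mouse, the Tanc2 order turned in KO1 (37.4 and 39.1 CPM) and KO3 (60.8 and 81.6 CPM) and held in WT1 and KO2. The Eya1 order held in the KO mice and turned in WT1, at 32.5 CPM in light and 62.7 CPM in dark cells, the latter from 8 UMIs. WT2 and WT3 had under 10 dark non-cycling cells.

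The higher level in KO mice was seen in most states of the germinal centre, again as a description. These are the cells that chose the genes. How many of all genes lack overlap within a state was not counted, so nothing is read from the lack of overlap below. In light cells the fitted log2 fold changes were 1.52 (SE 0.21) for Tanc2, 0.84 (SE 0.15) for Eya1, 1.55 (SE 0.26) for Ryr2 and 1.79 (SE 0.38) for Cdk5rap1, with no overlap between genotypes for any of them. In dark cells they were 1.24 (SE 0.41) for Tanc2 and 1.58 (SE 0.55) for Cdk5rap1, each without overlap. The groups overlapped there for Eya1, with 0.34 (SE 0.25), -0.22 in lane 1 alone and 1.12 in lane 2 alone. They also overlapped for Ryr2, below the filter, at 3.89, 0 and 0 CPM in WT and 5.23, 11.1 and 2.67 CPM in KO mice. In unresolved cells the KO means were 32.4 against 16.4 CPM for Tanc2, 57 against 26.9 for Eya1, 10.4 against 4.39 for Ryr2 and 14.6 against 3.68 for Cdk5rap1, all without overlap.

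By cycle state, Tanc2 had log2 fold changes of 1.68 (SE 0.30) in non-cycling, 1.39 (SE 0.40) in Mcm-positive and 1.19 (SE 0.28) in Top2a-positive cells, the last 0.61 without WT1. Eya1 had 0.67, 0.95 and 0.81 in the same order, the second 0.58 without KO2. Ryr2 had 1.78 in non-cycling and 1.42 in Top2a-positive cells, and its Mcm-positive levels of 7.05, 0 and 15.1 CPM in WT overlapped those of 10.1, 13.1 and 12.7 CPM in KO mice. Cdk5rap1 had 1.31 and 1.68 in non-cycling and Top2a-positive cells (2.11 and 1.07 without WT1), and in Mcm-positive cells 1, 0 and 1 UMIs in WT against 6, 22 and 14 in KO mice. In 449 cells of 2 shallow germinal centre B-like clusters, with medians of 2382 and 2263 UMIs, there were 9 UMIs of Tanc2, 8 of Eya1, 4 of Ryr2 and 12 of Cdk5rap1. The pooled levels in the first and second of these clusters were 6.33 and 7.62 CPM for Tanc2 against 29.6 CPM in all germinal centre B-like cells, 7.6 and 3.81 against 49.4 CPM for Eya1 and 2.53 and 3.81 against 14.2 CPM for Ryr2. Cdk5rap1 stood at 12.7 CPM in the first, near its 12 CPM over all these cells, and at 3.81 CPM in the second. These clusters held 8.26 to 13% of germinal centre B-like cells in WT and 9 to 14.8% in KO mice, and without them the same genes were called between the states.

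Whether the difference between genotypes itself differed between states was tested as an interaction, which the choice of the genes did not use. Ryr2 and Cdk5rap1, below the filter between zones, passed here because fewer sums had to reach it, and these came mainly from KO mice. Ryr2 held 43, 99 and 56 UMIs in light cells of KO1 to KO3 but 15, 4 and 9 in those of WT1 to WT3. As KO mice are where these genes are high by choice, nothing is read from their lack of a call between zones. The same holds between cycle states, where Cdk5rap1 held 0 to 9 UMIs in the WT sums and 6 to 50 in the KO sums. Between dark and light, the change in the log2 fold change was -0.26 (SE 0.51) for Tanc2, -0.53 (SE 0.30) for Eya1, -0.08 (SE 1.43) for Ryr2 and -0.13 (SE 0.69) for Cdk5rap1. The edgeR adjusted p was 1 for each, so 0 of 4 were called, against 0.0792% of 7578 genes; none had an unadjusted p under 0.05 and DESeq2 called 0. Between Top2a-positive and non-cycling cells it was -0.47 (SE 0.46) for Tanc2, 0.14 (SE 0.28) for Eya1, -0.38 (SE 0.61) for Ryr2 and 0.38 (SE 0.62) for Cdk5rap1. Again the edgeR adjusted p was 1 for each and 0 of 4 were called, against 0.103% of 7784 genes, with 0 at an unadjusted p under 0.05 and 0 by DESeq2. The errors are wide: the SE for Ryr2 between zones spans a change of several fold, and without WT1 its value was 5.19.

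Of the close relatives of the 4 genes, Eya3, Ryr1, Cdkal1 and Trit1 could be tested between genotypes in germinal centre B-like cells and edgeR called none of them, while Tanc1, Eya2, Eya4 and Ryr3, at 2 to 15 UMIs, had no fit. Tanc1, the paralogue of Tanc2, was a T-like gene here, at 45.5 ± 6.25 CPM in T-like and 0.501 ± 0.488 CPM in germinal centre B-like cells (SD, n = 6). Of the 20 scaffold and partner genes listed for Tanc2, 10 were tested in germinal centre B-like cells and edgeR called 0 between genotypes (median log2 fold change -0.10, against -0.00 over all genes). Over all 10116 genes tested there, 0.089% were called higher and 0.0297% lower in KO, so 0 called in a short list lies near that share. Between cycle states, Scrib was higher in Top2a-positive cells (0.61), of 6 tested, where 26.4% of all genes were. The postsynaptic scaffold genes Shank1 (-1.03) and Dlg1 (-0.34) and the kinase gene Map4k4 (-0.24) were lower, where 24.5% of all genes were.

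Of the Eya genes, Eya2 was at 23.3 ± 6.85 CPM in T-like cells and 0.533 ± 0.643 CPM in germinal centre B-like cells, the reverse of Eya1, and Eya4 gave 2 UMIs in germinal centre B-like cells. Eya3 was found in all 3 classes, at 20 ± 2.68 CPM in germinal centre B-like cells, where its genotypes differed by -0.04 on the log2 scale (SE 0.17, edgeR adjusted p = 1). Only 3 of the 17 genes listed for Eya1 (its paralogues and the partners of its network) could be tested there. None of the 3 was called (median 0.12), where 0.089% of all genes were called higher and 0.0297% lower. Pax5, the B cell identity factor in that list, was lower in Top2a-positive than non-cycling cells by -0.42 (SE 0.05, edgeR adjusted p = 3.33e-09), and so was the SKI family gene Skil (-0.37). They were 2 of 3 tested, where 24.5% of all genes were called lower.

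The calcium release genes gave the fullest comparison for Ryr2. Ryr1, the skeletal muscle receptor, was at 20.6 ± 3 CPM in germinal centre B-like, 17.6 ± 2.98 CPM in follicular B-like and 0.418 ± 0.502 CPM in T-like cells, so Ryr1 and Ryr2 were both found in these B cell classes. Its genotype difference in germinal centre B-like cells was -0.09 (SE 0.17, edgeR adjusted p = 1), and Ryr3 was near 0 in both B cell classes. The inositol trisphosphate receptor genes Itpr1, Itpr2 and Itpr3 had log2 fold changes of -0.07, -0.07 and -0.04 between genotypes. Of the 26 listed genes, 22 were tested and edgeR called 0 in germinal centre B-like cells (median 0.01), with 0 also in follicular B-like and T-like cells (21 tested in each). Of all genes, 0.089, 0.0409 and 0.2% were called higher in KO in the same order, and 0.0297, 0.0102 and 0.13% lower.

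Between states, members of the same list were called in both directions. These fits used cells as counted, while depth differed between the states. Lower in dark than light cells were Itpr2 (-0.61), Camk2d (-0.50), Itpr1 (-0.46) and Itpr3 (-0.36), 3 release channels and a calmodulin-dependent kinase. Higher in dark were among others the calmodulin genes Calm3 (0.35) and Calm2 (0.33) and the calcium leak channel gene Tmco1 (0.42). In all, 5 were higher and 4 lower of 19 tested, where 7.72 and 6.43% of all genes were. In Top2a-positive against non-cycling cells 6 were higher and 7 lower of 19, where 26.4 and 24.5% of all genes were. The 7 were the release channels Itpr2 (-0.74), Itpr1 (-0.69), Ryr1 (-0.51) and Itpr3 (-0.32), the store-operated channel subunit Orai2 (-0.83), Camk2d (-0.57) and the pump Atp2a3 (-0.26). The 6 included Calm2 (1.03), Calm3 (0.65), Tmco1 (0.52) and Fkbp1a (0.46). In Mcm-positive cells 3 were higher (Fkbp1a and Calm3 among them) and 4 lower (Camk2d, Orai2, Itpr1 and Itpr2) of 19. In that comparison 13.7% of all genes were called higher and 9.75% lower.

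**Figure D5:**
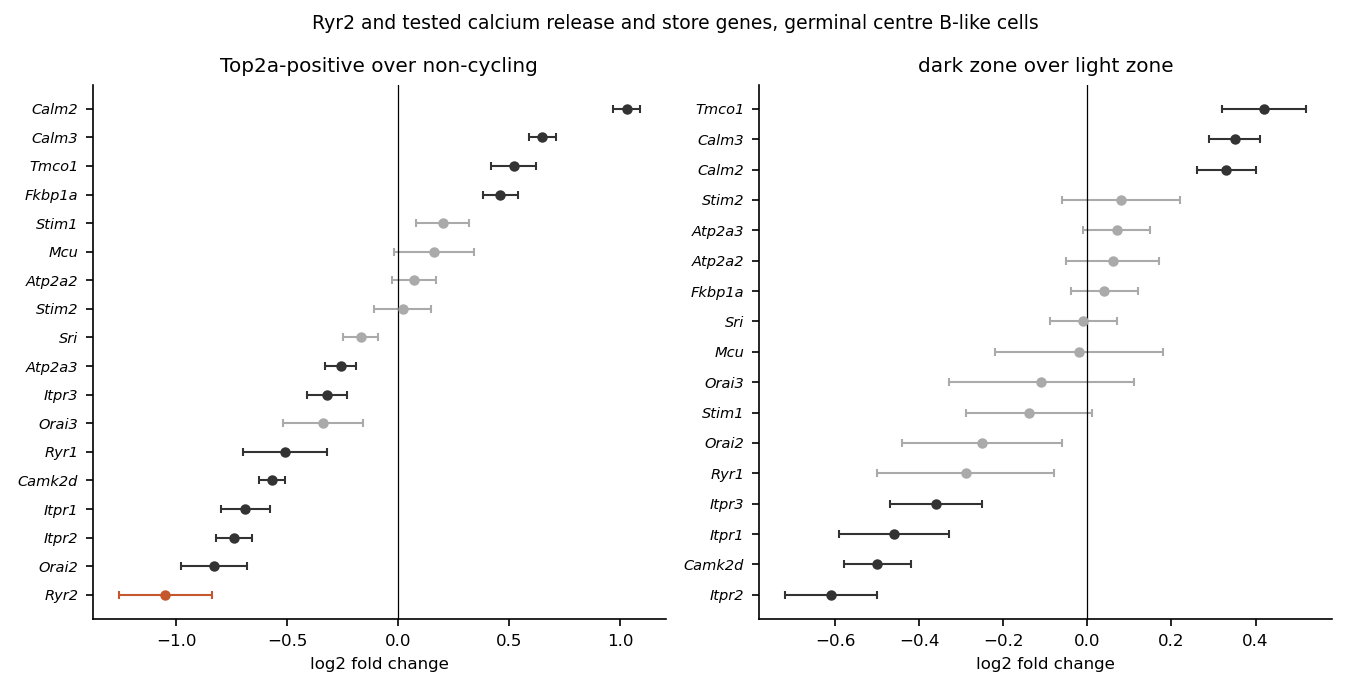
Fitted log2 difference (x axis, with SE) of Ryr2 (orange) and tested calcium release and store genes, without 2 that are not reported here, between Top2a-positive and non-cycling cells (left) and between dark and light cells (right); black genes passed an edgeR adjusted p of 0.05 and grey genes did not. On the left Ryr2 has the lowest value at -1.05, next to Orai2 at -0.83 and Itpr2 at -0.74. Calm2 and Calm3 lie on the other side of 0. On the right Ryr2, below the filter, is not drawn. Cells are as counted here. With cells thinned to 2000 UMIs and no filter the Ryr2 value on the left was -0.25 (SE 0.32).

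For Cdk5rap1, the related transfer RNA modification genes Cdkal1 and Trit1 were at 34.4 ± 4.77 and 16 ± 3.9 CPM in germinal centre B-like cells, with genotype differences of -0.04 (SE 0.15) and -0.17 (SE 0.21). In T-like cells, where Cdk5rap1 was higher in all KO mice, Trit1 had a log2 difference of 0.74 (SE 0.29, edgeR adjusted p = 0.537) and Cdkal1 one of 0.08 (SE 0.15). All 24 listed genes were tested in germinal centre B-like cells and edgeR called 0 (median -0.06). Of all genes tested there, 0.089% were called higher and 0.0297% lower in KO. Hsd17b10 (-0.29), a subunit of mitochondrial RNase P, and Alkbh1 (-0.24), a transfer RNA demethylase, were lower in Top2a-positive cells, of 13 tested. In that comparison 24.5% of all genes were called lower, so nothing particular to the list is read from these 2.

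The genes most like each of the 4 were sought by the Pearson correlation of log2(CPM + 1) over 26 sums of mice and classes in 5 classes, among 9280 genes; sums share mice, so this is a description. Eya1 was most like Scimp (r = 0.97), an adaptor of antigen-presenting cells, followed by Setbp1 (0.91), Arhgap6 and Ccdc50 (0.90 each) and Mapre2 (0.89). Ryr2 was most like C1galt1 (0.93), Ffar1 and Myo1e (0.92 each) and Crisp3 and Pik3c2b (0.91 each). Tanc2 was most like Eri2 (0.89), Mnat1 (0.84) and Rab35, C2cd2l and Ulbp1 (0.83 each), and Cdk5rap1 had the weakest likeness, to Ints12 (0.83), Zfp738 (0.80), Gnpat and Mrgbp (0.78 each) and Zmym6 (0.76). Among themselves the 4 genes had r from -0.21 (Tanc2 and Cdk5rap1) to 0.55 (Eya1 and Ryr2), so over cell types they did not share one pattern.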

How the data were processed

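Per the file headers, the deposited gene expression matrices are UMI counts from cellranger 7.0.1, and per the submitters' processing notes reads were mapped to mm10. The authors also deposited hashtag calls per barcode and a table of hashtags and genotypes; barcodes called for a single hashtag were used, by a calling rule that none of the sources used here states. The 4 genes and the related gene lists were chosen with earlier results of these data known. Cells with at least 500 UMIs, 200 genes and at most 10% mitochondrial UMIs were kept; Scrublet removed 184 (0.958%). Clustering used scanpy 1.11.5 and Leiden (leidenalg 0.10.2; resolution 1, 2000 variable genes, 30 components, 15 neighbours) in Python 3.11.15. Clusters were named by marker lists. Clustering settings, the naming score and the splitting of 1 mixed cluster were set after the clusters and their markers were seen; 2 of 19 clusters stayed unnamed. Raw UMIs were summed per mouse and class or state (at least 10 cells) over both lanes, and tested with edgeR 4.0.16 in R 4.3.3 (TMM, filterByExpr, quasi-likelihood, two-sided, Benjamini-Hochberg over all genes tested, threshold 0.05), with mouse as a term between states. SEs are the fitted log2 fold change over the root of F. The script was tested on simulated data. CPM (counts-per-million) divides a gene's UMIs by all UMIs of the summed cells. Named genes were the 4, their closest relatives, list members past the threshold and the 5 genes most like each. Alternatives were DESeq2 1.42.0, no filter, leaving out each mouse, each lane alone, Leiden resolution 2, Scrublet calls kept, cells thinned to 2000 UMIs, other zone and cycle gates and, added after seeing the data, leaving out shallow clusters and thinning without a filter. Exact permutation tests were run in scipy 1.17.1. Intervals and limits cover counting error only. Some genes of the lists are not reported here.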

Additional observations from a re-analysis of the deposited data

How the results depend on the processing

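No paired analysis was possible because each mouse has its own hashtag number and none is shared between genotypes; states were compared within mice. Of the summary results, 98 values kept their count over the alternatives; the others follow, and the cause of each was not tested unless genes or mice left the fit. Between zones the 1 gene called became 2 without a filter, 0 by DESeq2, 0 in each lane alone and 0 with thinning, with or without the filter, and 0 to 2 when 1 mouse was left out. The added gene was Ryr2, which without WT2 or without WT3 passed the filter mainly through KO sums. For Top2a-positive cells the 2 genes became 1 by DESeq2, 0 to 3 with a mouse left out, 1 in lane 1, 0 in lane 2, 0 with thinning, with or without the filter, and 1 with the stricter cycle gate; for Mcm-positive cells they became 1 by DESeq2, 0 to 2 with a mouse left out, 0 in each lane, 0 with thinning, with or without the filter, and 0 with the stricter gate. In lane 1 alone, and with a zone margin of 2 UMIs, WT2 fell below 10 dark cells and was not in the fit.

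Among single genes 27 values turned sign. Eya1 turned to 0.01 between zones in lane 1 alone, to 0.08 between Top2a-positive and non-cycling cells with thinning and 0.06 with thinning and no filter, and to -0.22 between genotypes in dark cells in lane 1. For the genotype difference between zones, Tanc2 was 0.05 in lane 1 and 0.92 with the margin of 2 UMIs, Eya1 0.47 in lane 2, Ryr2 3.56 in lane 1, and Cdk5rap1 0.96 in lane 1 and 0.05 without the shallow clusters. For that between cycle states, thinning gave 0.26 for Tanc2 and -0.34 for Eya1. In follicular B-like cells Tanc2 was -0.04 at Leiden resolution 2, and its share of positive cells differed by 0.132 percentage points as counted. With 1 mouse left out, the genotype difference between zones ran from -0.47 to 0.00 for Tanc2, -1.08 to 5.19 for Ryr2 and -1.03 to 0.19 for Cdk5rap1, and that between cycle states from -1.03 to 0.78 for Cdk5rap1. The follicular B-like difference then ran from -0.20 to 0.33 for Tanc2, -0.33 to 0.02 for Ryr2 and -0.12 to 0.57 for Cdk5rap1, the Ryr2 share there from -0.582 to 0.379 percentage points and the Tanc2 share in T-like cells from -0.268 to 0.298. None of the results in these last ranges passed its threshold in any alternative run.
Depth limits Cdk5rap1 and Ryr2 most: with 30 and 43 UMIs in all WT germinal centre B-like cells, WT values in single states rest on few molecules.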
